A study of Mus musculus with 6 samples.

Results

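Lif, Lifr, Osmr, Il6st, Jak1 and Socs3 encode the ligand, the receptor chains, a kinase and an inhibitor of the LIF receptor pathway, and their promoter-anchored contacts were mapped in mouse embryonic stem cells (mESCs). The rule that chose the genes uses their names as a pathway and no measured value, although it was set with earlier results of these data known. They are 6 of the 21956 genes named in any of the 4 deposited interaction lists. A pair is a promoter fragment of a gene and a distal fragment, and all pairs whose promoter fragment is assigned to one of the 6 genes were taken. A pair was counted as called when the same promoter fragment and the same distal fragment were listed in both HiCap replicates. The 6 genes had 233 pairs in HiCap replicate 1, 360 pairs in HiCap replicate 2, 51 called pairs and 52 pairs in Hi-C.

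HiCap joins Hi-C, which ligates DNA ends that lie close together in fixed nuclei, with capture of the ligation products by probes against promoters. There were 2 biological HiCap replicates, from mESCs of the R1 line that were kept on gelatin in serum medium with LIF at 1000 U/ml. Cells were fixed with 1% formaldehyde for 10 min, and nuclei were digested for 4 h with MboI, an enzyme that cuts at GATC. Hi-C without capture was performed on 2 replicates from R1 cells, which are pooled in 1 list, and 2 Capture-C samples were not analysed here. All cells were kept in LIF, so the lists hold no comparison with and without the cytokine. The identity of the cells was not checked against marker genes, since the lists hold contacts and no expression values.

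LIF is a secreted cytokine of the interleukin-6 family that keeps mESCs in the self-renewing state. It binds LIFR, which then pairs with gp130, the shared signalling chain encoded by Il6st, and kinases of the JAK family on the receptor tails phosphorylate STAT3. STAT3 dimers bind the palindrome TTCNNNGAA and raise the transcription of targets that include Socs3, whose product binds gp130 and JAK kinases and shuts the signal off. OSMR is the chain that pairs with gp130 for oncostatin M.

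Over all genes, replicate 1 listed 499746 pairs and replicate 2 listed 553977. Both listed 94896 pairs, or 94850 where the gene name had to be the same too. The lists hold positions on the mm9 build and no read numbers, so the number of reads behind a pair is unknown, and the intervals below are exact binomial 95% intervals that cover counting error only. The replicates stood apart in distance. For the 6 genes, 3 pairs of replicate 1 and 38 pairs of replicate 2 spanned over 1 Mb (1.29% and 10.6%), against 0.371% and 19.4% over all genes. None of these long pairs of the 6 genes was called. Over all genes, 3.56% of such pairs in replicate 1 and 0.0613% of those in replicate 2 were called.

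All 6 genes had at least 1 called pair. Among all genes that either HiCap replicate listed, 60.7% had one. Socs3 had 23 called pairs, Lifr 12, Lif 11, Il6st 3, and Osmr and Jak1 1 each. The pairs of the 6 genes were found again in the other replicate at shares whose intervals include the shares of all genes. Replicate 2 listed 21.9% of the replicate 1 pairs of the 6 genes (interval 16.8 to 27.8%), against 19% for all genes. Replicate 1 listed 14.2% of their replicate 2 pairs (10.7 to 18.2%), against 17.1% for all genes. Without Socs3 the shares for the other genes were 15.5% and 10.7%, so the values of the group rest in part on this gene.

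**Figure D1:**
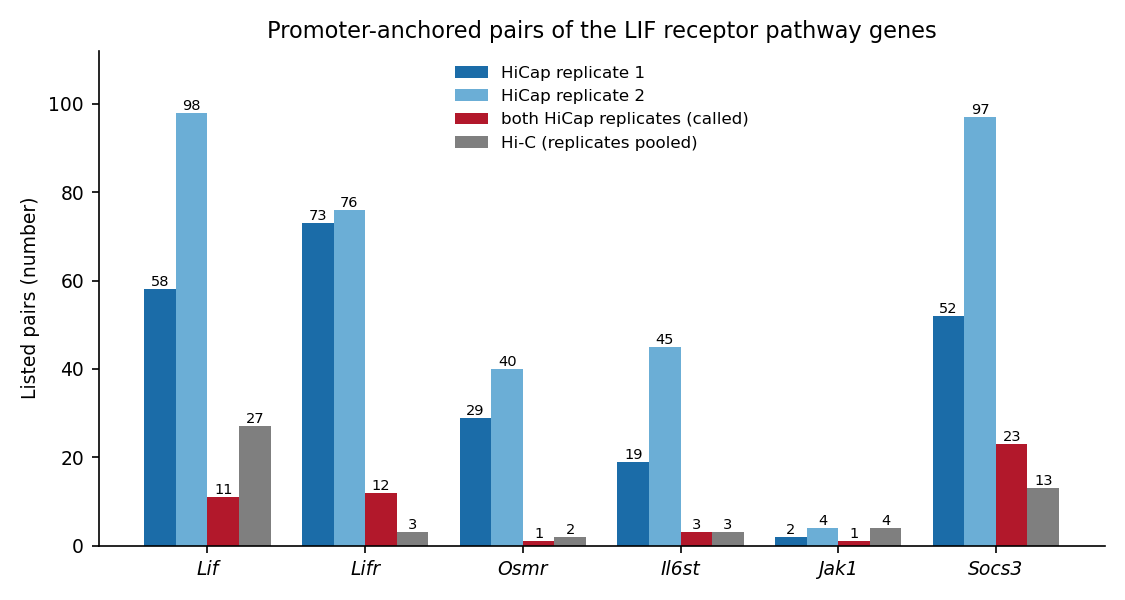
Number of listed pairs of each gene (vertical axis) in HiCap replicate 1, HiCap replicate 2, both HiCap replicates and Hi-C (bars from left to right). Socs3 leads the called pairs with 23, Lif leads Hi-C with 27, and Jak1 has 4 or fewer in every list.

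The 6 genes differed widely in their numbers of called fragments. The median gene had 1 called distal fragment, and the median of genes with a call was 3. As many called fragments as Socs3 or more were found for 3.72% of genes (788 genes), as many as Lif for 12.2%, and as many as Lifr, whose 12 calls held 10 distinct fragments, for 13.7%. The value was 36.3% for Il6st and 60.7% for Osmr and Jak1, whose single call is the fewest a gene with a call can have. The highest number over all genes was 121.

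**Figure D2:**
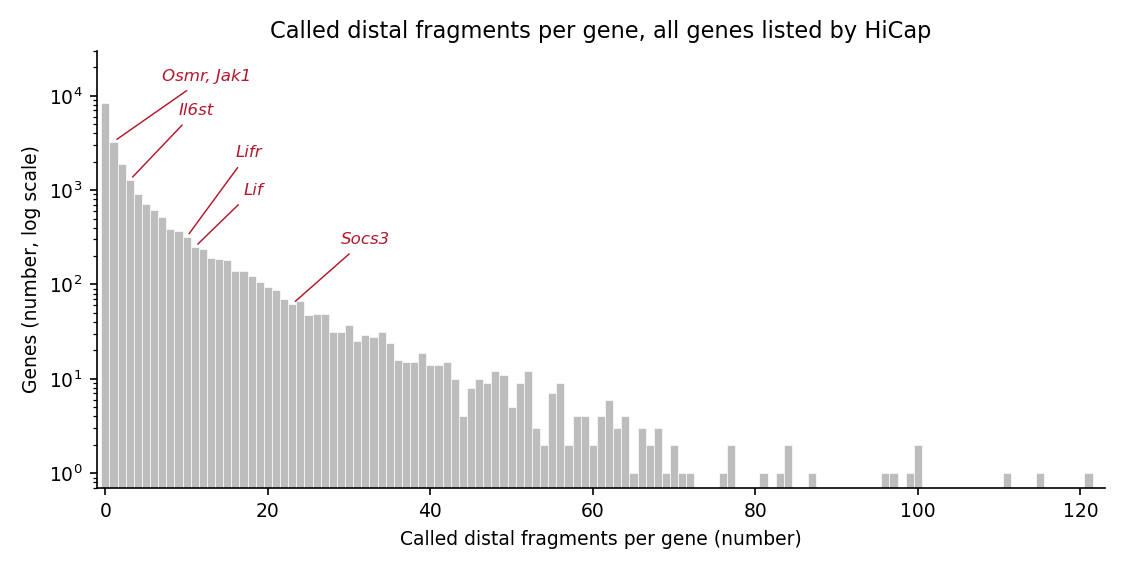
Distribution of the number of called distal fragments per gene (horizontal axis) over all genes listed by HiCap, with the number of genes on a log scale (vertical axis) and the 6 genes marked. Socs3, with 23, lies in the upper tail, and Osmr and Jak1, with 1 each, lie at the lowest number that counts as a call.

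Lif, the ligand, lies on chromosome 11 on the plus strand (mm9, chr11:4157560-4172517) and had 2 promoter fragments. The fragment at chr11:4157109-4157787 holds the annotated start of the gene, and the fragment at chr11:4166457-4167178, which lies 9.37 kb downstream, holds 2 annotated starts. The upstream promoter had 28 pairs in replicate 1, 57 in replicate 2, 7 called and 13 in Hi-C. The downstream promoter had 30, 41, 4 and 14 in the same order of lists. No called distal fragment was shared by both promoters, although replicate 1 listed 5 fragments with both and replicate 2 listed 2. Counted for the gene at either promoter, 19 replicate 1 pairs of Lif had their distal fragment in replicate 2, against 11 at the same promoter.

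In each replicate list, pairs of Lif lay on both sides of both promoters. Of the 11 called pairs of Lif, however, 10 pointed upstream. The nearest were a fragment of 348 bp at 2.77 kb and one of 2071 bp at 9.57 kb, both in Hi-C as well, and an intronic fragment of Lif that lies 4.27 kb upstream of the downstream promoter and was also in Hi-C. Further out, 4 called fragments between 26.05 and 33.3 kb lay on the far side of the promoter of Osm, which encodes oncostatin M, a cytokine of the same family whose promoter is 20.7 kb from the nearest Lif promoter. Another 2 lay in introns of Tbc1d10a, at 63.3 and 66.4 kb. The median distance of the called pairs was 26.05 kb, the longest of the genes with more than 1 call. The only called fragment downstream was at 21.7 kb, and it is the only one of Lif that holds TTCNNNGAA. The bases around this site are shown because of the motif, which is in capitals (mm9, plus strand, chr11:4187665-4187785).
Lif distal fragment at 21.7 kb, around its motif: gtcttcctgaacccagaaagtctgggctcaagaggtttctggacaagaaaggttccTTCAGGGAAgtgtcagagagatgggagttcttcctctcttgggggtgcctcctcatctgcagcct

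Lif shared called fragments with its neighbours. Of its 11 called fragments, 6 were also called for other genes, namely 4 for Gatsl3 (4 of its 15), 4 for Osm (4 of its 14) and 2 for Tbc1d10a (2 of its 24), with some fragments counted for several. The Tbc1d10a intron fragment at chr11:4103020-4104084 was called for 10 genes and 13 promoter fragments, Lif and Osm among them. Hi-C listed 27 pairs for Lif, more than for any of the other 5 genes, and 96 of the 21956 genes (0.437%) had as many or more. Of these 27 pairs, 11 were in replicate 1, 8 in replicate 2 and 12 in neither. Those in neither included 3 of the upstream promoter and 5 of the downstream promoter that lay 41.6 to 247.6 kb downstream. On that side HiCap called a single fragment, although each replicate alone listed many pairs there.

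Lifr encodes the chain that binds LIF (mm9, chr15:7079559-7147489, plus strand). One promoter fragment, chr15:7078931-7080285, holds 2 annotated starts, and the other, chr15:7090415-7090616, lies 10.9 kb into the gene, where RefSeq but not the GENCODE annotation has a start. The upstream promoter had 55 pairs in replicate 1, 59 in replicate 2, 9 called and 1 in Hi-C. The downstream promoter had 18, 17, 3 and 2. Called pairs lay on both sides of the promoters, 6 upstream and 6 downstream. Downstream of the upstream promoter they included 3 intronic fragments between 2.89 and 4.65 kb, and the upstream ones ran to 78.6 kb. No called fragment of Lifr was linked to any other gene, whereas 13.9% of all called fragments were. None of its 12 called pairs skipped a captured promoter of another gene. Upstream no captured gene lies within the 255.2 kb up to the start of Osmr, so the calls there had none to skip.

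Both Lifr promoters called the same fragments in 2 cases. The intronic fragment chr15:7083835-7084682 was 4.65 kb downstream of the upstream promoter and 6.26 kb upstream of the other. The fragment chr15:7144820-7145222 lies in an exon of Lifr, in its untranslated part near the end of the gene, 65.4 and 54.5 kb away. Hi-C listed neither, and none of the 12 called pairs of Lifr was in Hi-C, where the gene had 3 pairs in all (0 of 12, interval 0 to 26.5%). Intronic called fragments of the gene are shown with the MboI site in capitals, the shared one by the 200 bases that face the upstream promoter, which are rich in ct repeats. The last sequence is from the most distant called fragment, at 78.6 kb, with the TTCNNNGAA site in capitals. All are on the plus strand of mm9, at chr15:7082357-7082633, chr15:7083836-7084035, chr15:7093930-7094189 and chr15:7001034-7001154.
Lifr intron, 2.89 kb from the upstream promoter: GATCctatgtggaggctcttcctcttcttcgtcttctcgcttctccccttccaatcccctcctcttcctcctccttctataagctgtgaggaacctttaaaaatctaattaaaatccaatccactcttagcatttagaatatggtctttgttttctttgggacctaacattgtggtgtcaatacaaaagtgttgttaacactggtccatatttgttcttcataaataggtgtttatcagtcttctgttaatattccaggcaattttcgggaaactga
Lifr intron, shared by both promoters: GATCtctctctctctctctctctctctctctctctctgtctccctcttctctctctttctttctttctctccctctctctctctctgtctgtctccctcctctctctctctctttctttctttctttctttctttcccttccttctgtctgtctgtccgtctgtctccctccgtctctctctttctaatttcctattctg
Lifr intron, 3.54 kb from the downstream promoter: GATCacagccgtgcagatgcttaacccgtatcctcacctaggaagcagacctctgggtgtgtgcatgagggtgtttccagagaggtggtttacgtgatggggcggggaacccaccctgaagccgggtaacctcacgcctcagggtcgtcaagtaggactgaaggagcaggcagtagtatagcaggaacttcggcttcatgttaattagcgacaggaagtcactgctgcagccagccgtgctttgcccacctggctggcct
Lifr upstream fragment at 78.6 kb, around its motif: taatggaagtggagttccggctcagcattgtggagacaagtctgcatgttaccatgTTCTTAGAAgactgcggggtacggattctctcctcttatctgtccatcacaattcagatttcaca

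Osmr, the receptor chain for oncostatin M, is the neighbour of Lifr on chromosome 15 (mm9, chr15:6763577-6824313, minus strand). The annotated starts of the genes lie 255.2 kb apart, with no other captured gene between them. Among the 6 genes Osmr had the lowest share of pairs found in both replicates. Replicate 1 listed 29 pairs and replicate 2 listed 40, but only 1 pair was in both, which is 3.45% of replicate 1 (0.0873 to 17.8%) and 2.5% of replicate 2 (0.0633 to 13.2%). The median distance was 10.9 kb in replicate 1 and 283.3 kb in replicate 2, where 9 pairs were over 1 Mb and none in replicate 1. The called fragment, chr15:6833764-6834726, has 962 bp, lies 10.3 kb upstream in intergenic DNA, was linked to no other gene and was not in Hi-C. It holds 1 TTCNNNGAA site, shown in capitals with the bases around it (mm9, plus strand, chr15:6834116-6834236).
Osmr distal fragment at 10.3 kb, around its motif: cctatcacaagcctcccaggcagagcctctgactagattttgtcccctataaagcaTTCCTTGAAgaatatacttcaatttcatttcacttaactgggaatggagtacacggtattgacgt

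Lifr and Osmr shared no called distal fragment. In the individual lists, replicate 1 had no shared fragment and replicate 2 had 2. A contact from a promoter of Lifr into the body of Osmr was listed once in each replicate, and one from the promoter of Osmr into Lifr once in replicate 2, but none of these was called. Hi-C held none either. The farthest called fragment in the interval between the genes was the Lifr fragment at 78.6 kb.

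Il6st encodes gp130 (mm9, chr13:113265216-113297068, plus strand). Its promoter fragment, chr13:113254098-113254409, overlaps the RefSeq promoter of the gene and lies 10962 bp from the nearest start in the GENCODE annotation. Replicate 1 listed 19 pairs and replicate 2 listed 45, with 3 in both and 3 in Hi-C. One called fragment lay 2.90 kb downstream, between the RefSeq start and the GENCODE start, and was counted as intergenic by the GENCODE annotation. The others lay 12.1 kb downstream in an intron of Il6st and 106.7 kb upstream in an intron of Ankrd55. This last distance was the longest among the 51 called pairs and the only one over 100 kb. None of the called fragments was in Hi-C (0 of 3, interval 0 to 70.8%) and none was linked to another gene or held TTCNNNGAA. The promoter-facing end of the intronic fragment is shown with the MboI site in capitals (mm9, plus strand, chr13:113266043-113266242).
Il6st intron, 12.1 kb from the promoter: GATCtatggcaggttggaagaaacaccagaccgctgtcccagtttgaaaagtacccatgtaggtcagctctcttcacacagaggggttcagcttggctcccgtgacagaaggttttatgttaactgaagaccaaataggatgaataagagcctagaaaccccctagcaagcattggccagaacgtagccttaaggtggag

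Jak1 encodes a kinase bound to gp130 (mm9, chr4:100824972-100937887, minus strand). It had 3 promoter fragments and the fewest pairs in each HiCap replicate, 2 in replicate 1 and 4 in replicate 2, against medians of 12 and 11 over all genes listed by HiCap. These pairs held 1 distinct distal fragment in replicate 1 and 2 in replicate 2, and 94.5% and 77.5% of genes had as many or more. In Hi-C it had 4 pairs, above the median of 2. The fragment at the main start, chr4:100937692-100937893, is 201 bp long and had 1, 2 and 3 pairs in replicate 1, replicate 2 and Hi-C. The same distal fragment of 2444 bp, 11.4 kb upstream at chr4:100948006-100950450, was in all 3 lists. It was also called for the annotated genes RP23-32L21.1 and RP23-32L21.2, and its midpoint lay nearer to the captured promoter of RP23-32L21.1. The promoters inside the gene, chr4:100856919-100859145 and chr4:100826769-100828719, had no call, but the same distal fragment was listed from the nearer of them in replicate 1, at 91.2 kb, and from the farther one in replicate 2, at 121.5 kb. The end of the called fragment that faces Jak1 is shown with the MboI site in capitals (mm9, plus strand, chr4:100948007-100948206).
Jak1 upstream fragment, 11.4 kb from the promoter: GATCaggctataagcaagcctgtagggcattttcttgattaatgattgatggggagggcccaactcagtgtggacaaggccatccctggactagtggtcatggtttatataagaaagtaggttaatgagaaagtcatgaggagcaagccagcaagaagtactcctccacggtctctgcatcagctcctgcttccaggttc

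Socs3, the inhibitor, had the most called pairs (mm9, chr11:117827393-117831361, minus strand). Its promoter fragment, chr11:117830047-117830940, had 52 pairs in replicate 1, 97 in replicate 2, 23 called and 13 in Hi-C. Of its replicate 1 pairs, 44.2% were in replicate 2 (30.5 to 58.7%), and of its replicate 2 pairs 23.7% were in replicate 1 (15.7 to 33.4%). Both shares lie above those of all genes, 19% and 17.1%, although the interval of the second includes the value of all genes. In the authors' combined list the 23 pairs stand at the adjoining fragment of 192 bp, chr11:117830940-117831132, and not at the fragment that both replicates name. The 250 bases before the RefSeq start of Socs3, which match mm9 exactly at chr11:117830681-117830930 inside the captured fragment, are shown on the gene's strand because they hold a TTCNNNGAA site, in capitals, 154 bases before the start. This motif is palindromic, so that 1 search covers both strands, and 7.02% of RefSeq promoters (GRCm38.p6) hold it in the same window. The promoters of the other 5 genes hold none there. Over whole captured promoter fragments, that of Socs3 holds 2 sites, the Jak1 fragment chr4:100826769-100828719 holds 1 and the others hold none.
Socs3 promoter: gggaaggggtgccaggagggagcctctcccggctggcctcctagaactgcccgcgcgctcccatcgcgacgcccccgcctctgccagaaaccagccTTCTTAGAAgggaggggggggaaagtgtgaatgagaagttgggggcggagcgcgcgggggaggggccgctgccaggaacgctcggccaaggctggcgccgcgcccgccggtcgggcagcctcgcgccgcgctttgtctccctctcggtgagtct

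Many called fragments of Socs3 lay near the gene. Of the 23, 15 lay within 10 kb, on both sides, and many adjoined each other. Of all called pairs, 24.15% lay at 1 to 5 kb and 24.73% at 5 to 10 kb. A run of 5 adjoining called fragments extended from 2.26 to 4.70 kb downstream and was separated from a run of 2, which reached 7.02 kb, by 5 bp. Upstream, a run of 3 covered 3.88 to 5.88 kb and a run of 2 covered 6.08 to 9.34 kb. With adjoining fragments merged, the 23 calls made 15 regions. Between 1 and 20 kb, 29.8% of the 84 MboI fragments around the Socs3 promoter were listed in replicate 1, 34.5% in replicate 2, 20.2% in both and 10.7% in Hi-C. Over the promoters of all genes listed by HiCap, the shares were 8.80%, 4.92%, 2.31% and 1.79%. Around the upstream promoter of Lifr, 29.5% of the fragments were listed in replicate 1 and 17.9% in replicate 2, but 7.69% in both. Around the main promoter of Jak1 the 3 shares were 1.32% each.

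Short called fragments of Socs3 are shown whole, with MboI sites and TTCNNNGAA sites in capitals, together with the bases around a site in a longer fragment. Those at 7.66 and 6.66 kb downstream hold TTCCAGGAA, which fits the stricter form TTCCNGGAA, and no other called fragment of the 6 genes does. The fragment at 3.92 kb downstream, the one at 6.66 kb and 3 others were also in Hi-C. The 97 bp fragment upstream is the shortest of all called fragments of the 6 genes and lies between called fragments on both sides. All are on the plus strand of mm9, at chr11:117822705-117822967, chr11:117823881-117824001, chr11:117826452-117826706, chr11:117835541-117835637 and chr11:117839893-117840151.
Socs3, 7.66 kb downstream: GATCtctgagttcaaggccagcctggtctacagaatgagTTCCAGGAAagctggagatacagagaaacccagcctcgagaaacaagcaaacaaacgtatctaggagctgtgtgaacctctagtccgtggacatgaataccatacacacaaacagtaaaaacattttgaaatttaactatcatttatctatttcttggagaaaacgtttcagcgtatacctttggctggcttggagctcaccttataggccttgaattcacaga
Socs3, 6.66 kb downstream, around a site: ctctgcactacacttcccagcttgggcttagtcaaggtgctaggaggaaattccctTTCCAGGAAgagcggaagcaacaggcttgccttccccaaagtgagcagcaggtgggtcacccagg
Socs3, 3.92 kb downstream: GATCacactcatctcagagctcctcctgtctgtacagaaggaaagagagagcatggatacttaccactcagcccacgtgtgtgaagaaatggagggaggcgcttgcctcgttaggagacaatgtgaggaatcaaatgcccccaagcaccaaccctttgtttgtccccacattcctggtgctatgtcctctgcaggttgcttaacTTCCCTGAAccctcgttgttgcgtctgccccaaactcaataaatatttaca
Socs3, 5.10 kb upstream: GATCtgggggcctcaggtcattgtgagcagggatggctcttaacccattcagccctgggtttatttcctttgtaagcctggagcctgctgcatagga
Socs3, 9.53 kb upstream: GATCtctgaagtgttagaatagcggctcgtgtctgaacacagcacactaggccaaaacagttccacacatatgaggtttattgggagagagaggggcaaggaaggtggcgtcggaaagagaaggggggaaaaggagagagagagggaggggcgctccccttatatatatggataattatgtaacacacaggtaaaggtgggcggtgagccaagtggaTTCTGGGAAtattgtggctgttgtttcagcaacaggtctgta

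Other called fragments of Socs3 lay in the gene itself, where 3 overlapped its exon sequence between 1.83 and 2.95 kb from the promoter, and at greater distance. Downstream, 4 fragments lay between 36.2 and 61.4 kb. Upstream, 2 fragments lay in introns of Pgs1, at 23.2 and 49.3 kb, and were the only called fragments of Socs3 that skipped a captured promoter. Pgs1 encodes a mitochondrial enzyme of cardiolipin synthesis, and its nearest promoter is 17.4 kb from that of Socs3. The gene shared 14 of the 23 called fragments of Socs3, which are 14 of its own 46. RP23-268N22.4 shared 5 of its 7, Afmid 4 of its 32 and Dnahc17 4 of its 4, with promoters 97.6 to 136.7 kb away. The fragment at 5.50 kb downstream (chr11:117824194-117825784) was called for 15 genes and 19 promoter fragments and was in Hi-C too. Of the 23 fragments, 15 were linked to at least 1 other gene.

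**Figure D3:**
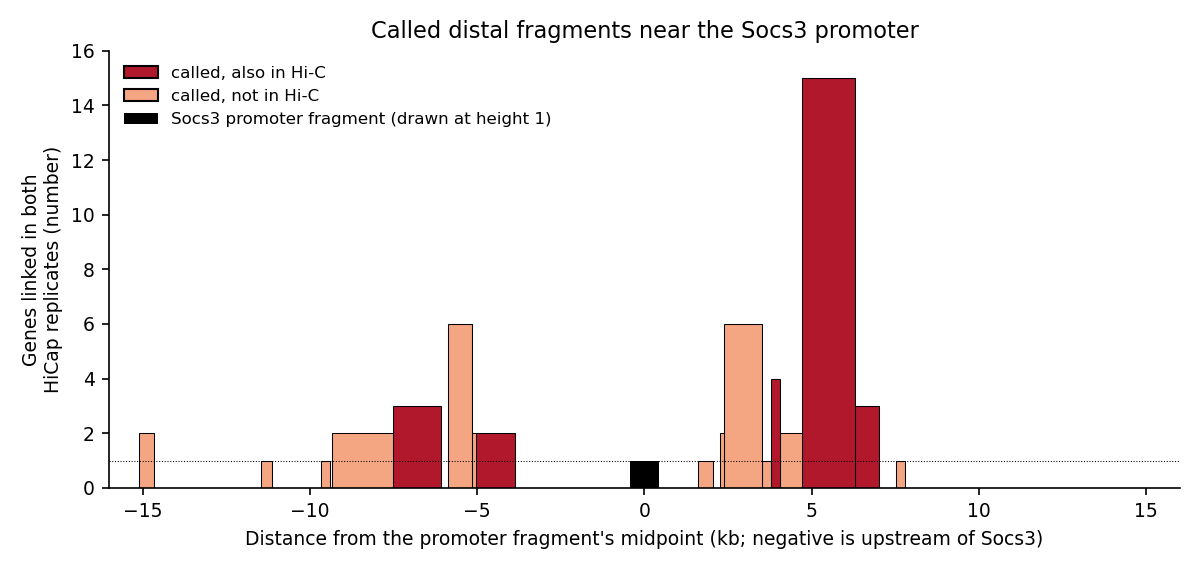
Called distal fragments within 16 kb of the Socs3 promoter, drawn to scale by distance (horizontal axis, kb, negative upstream) with the number of genes linked to each in both HiCap replicates as the height. Fragments also in Hi-C are dark, and the fragment at 5.50 kb downstream reaches 15 genes.

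Over the 6 genes, called fragments lay 1.83 to 106.7 kb from their promoters with a median of 9.57 kb, against 10.3 kb over all called pairs. Of the 51 called pairs, 26 lay within 10 kb and 9 over 50 kb. At 1 to 5 kb lay 29.4% of them and at 5 to 10 kb 21.6%, against 24.15% and 24.73% of all called pairs. In the individual lists the medians of the 6 genes were 24.6 kb in replicate 1 and 77.3 kb in replicate 2, and 12.0 kb in Hi-C. Over all genes they were 19.8, 100.8 and 9.60 kb. The distinct called fragments numbered 49, of which 34 were intergenic, 11 intronic and 4 exonic by the GENCODE annotation without pseudogenes, with a median length of 783 bp. For 42 of the 51 called pairs no captured promoter of another gene lay between promoter and distal fragment, and for 32 the nearest captured promoter was that of the gene itself. No values over all genes are given beside the counts over 50 kb, by annotation, by promoters in between and by nearest promoter. These counts describe the 6 genes only. Of the 49 fragments, 22 were also called for other genes (44.9%, 30.7 to 59.8%), against 13.9% of all called fragments. All of these 22 belong to Socs3, Lif and Jak1, and Lifr, Osmr and Il6st had 0 of 14.

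**Figure D4:**
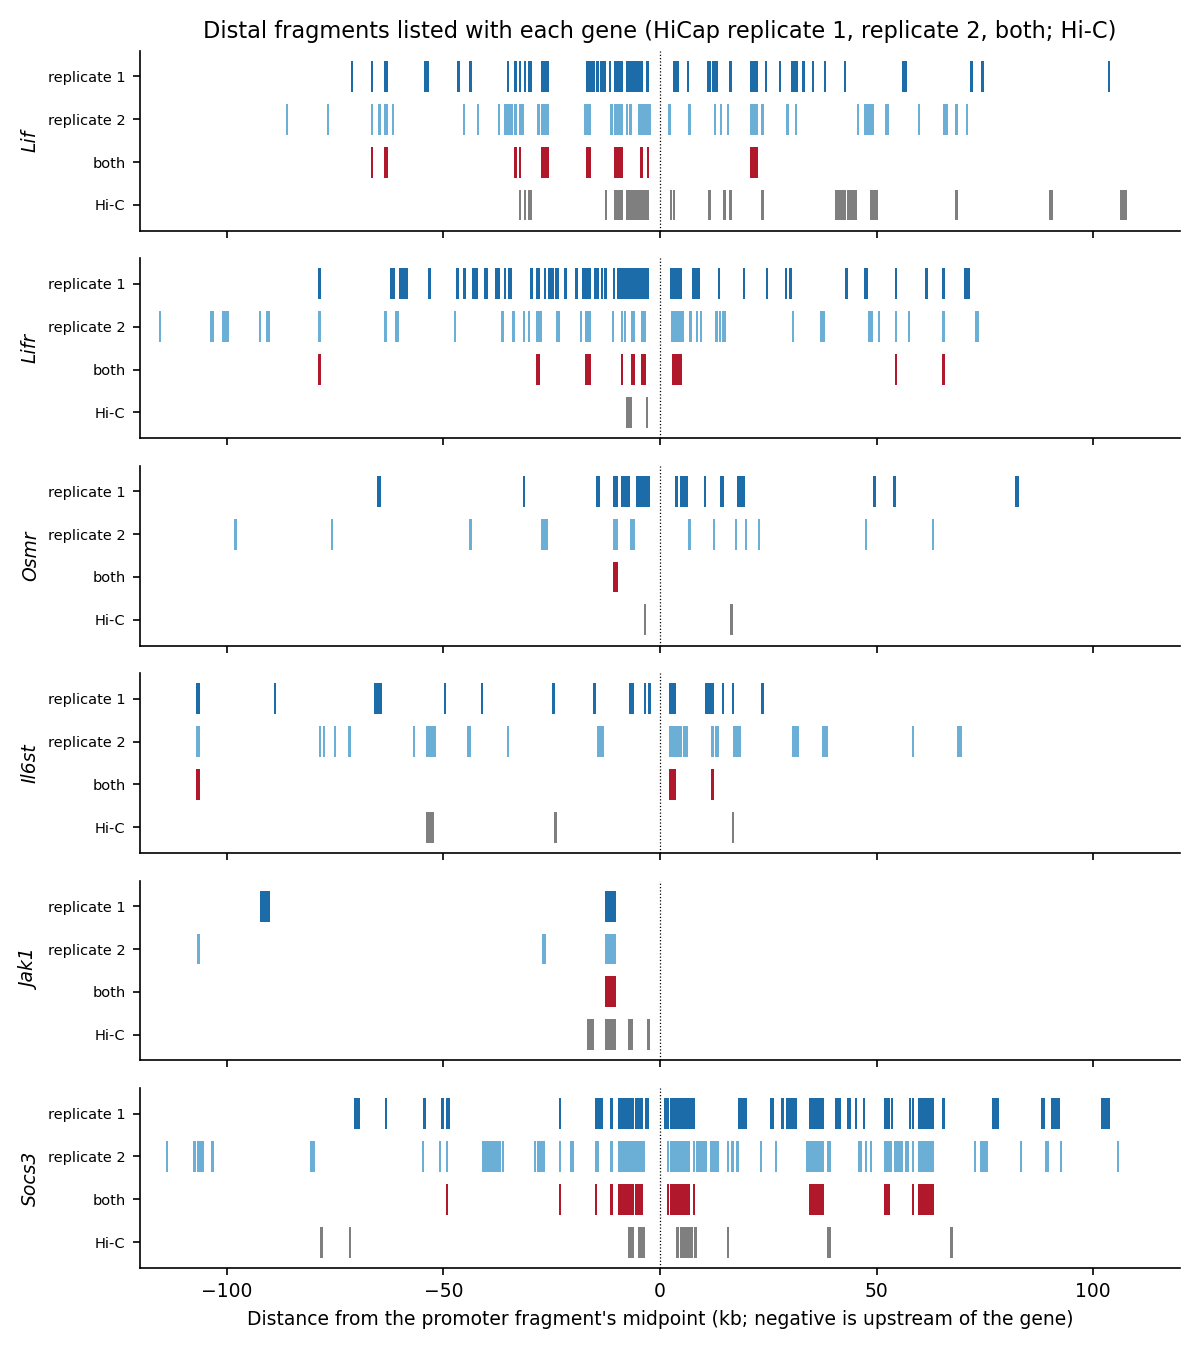
Distal fragments listed with each gene (panels) within 120 kb of the promoter fragment, as the distance from the midpoint of the promoter they were paired with (horizontal axis, kb, negative upstream of the gene), for HiCap replicate 1, HiCap replicate 2, both replicates and Hi-C from top to bottom. Fragments under 0.5 kb are drawn 0.5 kb wide, and the called fragments of Socs3 crowd around the promoter while those of Lif lie mostly upstream.

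Pairs at short distance were more often listed in both replicates than pairs at long distance, in the 6 genes and in all genes. At 1 to 5 kb, 42.9% of the replicate 1 pairs of the 6 genes were in replicate 2 (26.3 to 60.7%) and 65.2% of their replicate 2 pairs were in replicate 1 (42.7 to 83.6%), against 31.6% and 58.0% for all genes. At 10 to 25 kb the values were 18.4% and 20.5%, against 20.1% and 33.7%. At 100 to 500 kb they were 3.70% and 1.03%, against 7.68% and 4.24%. Beyond 500 kb no pair of the 6 genes was called. Over all genes, the shares were 2.93% and 0.345% at 500 to 1000 kb, and 3.56% and 0.0613% beyond that. The pooled intervals of the 6 genes include the value of all genes in each class up to 500 kb for both replicates. No difference of the pooled genes from the whole was detectable at these numbers. Over all distances, replicate 2 listed 44.2% of the replicate 1 pairs of Socs3 (30.5 to 58.7%). The share was 15.5% without Socs3 and 19% for all genes. Replicate 1 listed 23.7% of the replicate 2 pairs of Socs3 (15.7 to 33.4%), against 10.7% without Socs3 and 17.1% for all genes. Departures of single genes can thus offset each other in a class, and classes without Socs3 were not tested.

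**Figure D5:**
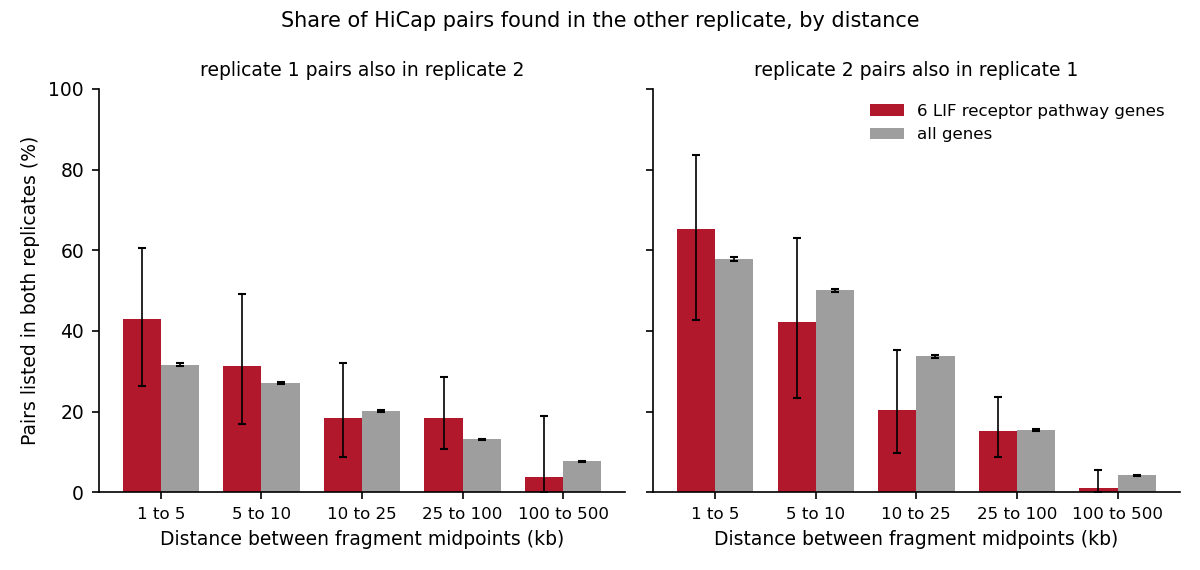
Share of HiCap pairs found in the other replicate (vertical axis, %) by distance class (horizontal axis, kb) for the 6 genes and for all genes, of replicate 1 pairs (left panel) and replicate 2 pairs (right panel), with exact binomial 95% intervals. The shares fall from 42.9% and 65.2% at 1 to 5 kb to 3.70% and 1.03% at 100 to 500 kb in the 6 genes.

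Hi-C listed 10 of the 51 called pairs (19.6%, 9.82 to 33.1%), against 12.5% of all called pairs. These were 5 pairs of Socs3, 4 of Lif and the pair of Jak1, and 0 of the 16 called pairs of Lifr, Osmr and Il6st. In the other direction, 28 of the 52 Hi-C pairs of the 6 genes were in at least 1 HiCap replicate (53.8%, 39.5 to 67.8%), with 21 in replicate 1 and 17 in replicate 2, against 39.4% for all genes.

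The replicate lists differed in distance over all genes, with medians of 19.8 kb in replicate 1 and 100.8 kb in replicate 2. Each of the 6 genes also had a longer median distance of all pairs in replicate 2. It was 132.1 kb against 31.7 kb in replicate 1 for Lif and 69.3 kb against 23.8 kb for Lifr. For Il6st it was 75.1 kb against 23.8 kb and for Socs3 52.4 kb against 24.5 kb. Replicate 2 pairs over 1 Mb numbered 13 for Socs3, 9 for Osmr, 6 each for Lif and Lifr, 4 for Il6st and 0 for Jak1, and the longest, of Lif, spanned 93.03 Mb. In replicate 1 the pairs over 1 Mb were 2 of Socs3 and 1 of Il6st. A looser match gave higher counts, except for Jak1. With distal fragments within 1 kb of each other taken as the same, 43 of the 52 replicate 1 pairs of Socs3 had a partner in replicate 2, as did 41 of 73 of Lifr, 30 of 58 of Lif, 12 of 29 of Osmr, 7 of 19 of Il6st and 1 of 2 of Jak1. These counts include the exact matches, such as 23 for Socs3 and 12 for Lifr, and no share over all genes is set beside them. Whether they exceed what the density of listed fragments gives was not tested.

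The STAT motif TTCNNNGAA was present in 14 of the 49 called fragments (28.6%, 16.6 to 43.3%), against 17.8% of all called fragments. Called fragments of the 6 genes were longer than those of all genes, with a median of 783 bp against 568 bp, and fragments of all genes taken at the length classes of the 6 genes held the motif in 22.5%, a value within the interval. Of the 14 fragments, 11 belonged to Socs3 (11 of 23, 47.8%, 26.8 to 69.4%), and the other 3 to Lif, Lifr and Osmr (3 of 26, 11.5%, 2.45 to 30.2%). No value at matched lengths is set beside either part of this split. The longest called fragments, of 3508 and 3439 bp, belong to Socs3 and hold the motif. Over all genes, 53.0% of called fragments over 2000 bp hold it. The stricter TTCCNGGAA was in 2 of the 49 fragments (4.08%), against 2.20% of all called fragments and 2.90% at the same lengths. A match shows only that these letters are in the fragment.

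Further genes of the pathway were counted from a list of 56, of which all but Cntf were listed, and 49 of the 55 listed genes had a call. Over all genes listed by HiCap 60.7% had one. The median was 4 called distal fragments in these 55 genes, against 1 over all genes and 3 over all genes with a call. Among ligands of the family Il27 had 24 and Osm 14, and all 8 listed ligands had a call. Among the other receptor chains Il31ra, the neighbour of Il6st, had 3, Cntfr, Il11ra1 and Il27ra had 1 each, and Il6ra and Lepr had none. These receptor values, 4 of 6 with a call and a median of 1, are close to those of all genes, and Lifr, with 10, was above them. Among JAK kinases Jak3 had 47 and Tyk2 5. Among STAT factors, all 7 of which had a call, Stat6 had 43 and Stat5b 24. Stat3, the main STAT of the LIF signal, had 18. Among inhibitors Pias4 had 23, as many as Socs3, and Ptpn6 had 12. Within the family of Socs3, Socs1 had 9, Socs7 had 7, Cish had 3 and Socs5 had 1, and Socs2, Socs4 and Socs6 had no call. Among adaptors, all 6 of which had a call, Pik3r1 had 7, and Gab1 and Sos1 had 2 each. Among genes taken here as targets of LIF and STAT3, which these data do not check, Id1 had 62 and Pim3 30, and Pramel7 had none.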

How the data were processed

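R1 mESCs were profiled by HiCap in 2 biological replicates, each with its own list, and by Hi-C in 2 replicates that share 1 list. According to the methods, the authors aligned read ends to mm9 with HiCUP and Bowtie, removed pairs at short distance assigned ends to MboI fragments and kept pairs of fragments above a minimum number of read pairs. The deposited files list positions (start and end of promoter and distal fragments with the gene name) and no read numbers, so the reads behind each pair are unknown here and no test of read counts was possible. The depth of the HiCap libraries is stated in the study and was not used here, and the minimum number of read pairs had to be met in each replicate for an interaction. For Hi-C, the threshold is not given in the sources used here. Capture-C samples were not used here.

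Pairs were read with Python 3.11.15, genome sequence with pysam 0.24.0, and exact binomial 95% intervals came from SciPy 1.17.1. Distance was taken between fragment midpoints. Coordinates are as deposited, and checks against the genome showed that fragment ends lie within 1 base of MboI sites. Some called distal fragments, such as that of Lif with 2071 bp, also hold an MboI site inside. Each was counted as 1 fragment, as listed. Exons, introns and starts came from GENCODE on mm9 with pseudogenes left out, so an intergenic fragment can overlap a pseudogene. Promoter sequences came from RefSeq (GRCm38.p6), where all 6 genes matched. Captured promoters are those the lists name. Intervals treat pairs as independent, although pairs that share a fragment are not. The counting steps were tested on simulated lists.

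Named genes are the 6 members, up to 3 genes that share most called fragments with each (more where tied), genes that hold or adjoin a called fragment and, in each further list of the pathway, the 2 with the most called fragments (more where tied) and those without a call. Stat3 and further members of the Socs family were named in addition, after their values were seen. Members and lists were chosen with earlier results of these data known. Alternatives were each replicate alone, the authors' combined list, pairs over 15 kb, matching within 1 kb or at any promoter, merged fragments, genes left out in turn and a stricter motif.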

Additional observations from a re-analysis of the deposited data

How the results depend on the processing

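The number of called pairs of the 6 genes was 51 as reported, 233 to 360 with a single replicate, 134 when distal fragments within 1 kb were matched and 20 over 15 kb, where Osmr and Jak1 lost their call. The median distance was 24642.5 to 77275.8 bp with a single replicate and 42742.5 bp over 15 kb, against 9568 bp. The share of replicate 1 pairs in replicate 2 was 14.6% over 15 kb, 57.5% within 1 kb, 28.8% at any promoter of the gene and 15.5 to 24.5% with each gene left out, the lowest without Socs3. The share of replicate 2 pairs in replicate 1 was 6.97% over 15 kb, 33.3% within 1 kb and 10.7 to 15.6% with each gene left out, again lowest without Socs3. The share of called pairs in Hi-C was 4.72 to 9.01% with a single replicate, 5.00% over 15 kb, 41.2% within 1 kb and 9.80% with the authors' combined list, which places the Socs3 pairs at another promoter fragment. With TTCCNGGAA the share of fragments with the motif was 4.08%. Of the alternative values for the 6 genes together, 20 moved and 28 did not, where a move was over 1.5-fold for a count or median and outside the 95% interval for a share.

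Each call rests on 1 list per replicate, and without read numbers the strength of a pair is unknown. The single calls of Osmr and Jak1 have no further replicate check among HiCap lists, and Hi-C listed that of Jak1 only. No paired analysis was possible because the Hi-C replicates are pooled in 1 list and no result comes from a test.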
